A study of Mus musculus with 11 samples.

Results

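The proteasome is the protease complex that degrades proteins tagged with ubiquitin. Its genes were compared between mouse small cell lung cancer tumors with the MYCN transgene switched on and tumors in which it had been switched off. Members were the symbols of the deposited count tables that begin with Psm, a letter from a to g and a digit, which gave 49 of 23284 symbols. Of these, Psmc3ip encodes a partner of Psmc3 known from meiotic recombination and is not a proteasome gene (log2 fold change 0.20, SE 0.41, edgeR quasi-likelihood test, adjusted p = 0.735), which left 48 proteasome genes.

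Small cell lung cancer is an aggressive neuroendocrine carcinoma. The MYCN ON group held 7 tumors taken on doxycycline, and the MYCN OFF group held 4 tumors taken 7 days after doxycycline had been removed from the feed. In both groups the genotype was Rb and p53 alleles with TRE-MYCN, a transgene driven by a tetracycline response element, and LSL-RTTA, a doxycycline transactivator behind a stop cassette that Cre removes. The labels name no Cre driver, no animal age and no species of the transgene, and they do not say whether any mouse gave more than 1 tumor, so p-values cover only the spread from tumor to tumor. Doxycycline and MYCN changed together, so their effects cannot be told apart, and the study has no tumors without the transgene on and off the drug.

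A proteasome has a barrel-shaped core of stacked rings. The outer rings are made of alpha subunits (Psma genes), which gate the channel, and the inner rings of beta subunits (Psmb genes), of which Psmb5, Psmb6 and Psmb7 carry the protease sites. A regulatory cap of ATPases (Psmc genes) and non-ATPase subunits (Psmd genes) recognises ubiquitin, unfolds the substrate and feeds it into the core. In cells exposed to interferon, and constitutively in many leukocytes, the catalytic subunits Psmb8, Psmb9 and Psmb10 take the places of Psmb5, Psmb6 and Psmb7 to form the immunoproteasome, which favours peptides suited to MHC class I.

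Counted reads per tumor were 10324089 to 13123838 in MYCN ON tumors and 8951733 to 12190957 in MYCN OFF tumors. Values per tumor are given as depth-scaled counts (CPM) with TMM scaling factors, a scaling that assumes most genes do not differ. The factors were 0.835 to 1.009 in MYCN ON tumors and 1.09 to 1.216 in MYCN OFF tumors, so they separated the groups themselves. A gene counted as called where edgeR's quasi-likelihood test gave a p below 0.05 after Benjamini-Hochberg adjustment over all 15237 genes tested. Mycn checked the labels, at 36.5 to 171 CPM in MYCN ON tumors against 14.5, 15.6, 13.0 and 5.62 CPM in MYCN OFF tumors (log2 fold change 3.06, SE 0.47, edgeR adjusted p = 0.00139). Summed markers of neuroendocrine cells, the labelled tumor type, stood at 2425 to 4129 CPM in MYCN ON tumors and 2035 to 8787 CPM in MYCN OFF tumors, with 12 of 12 tested. The amount of other tissue differed between tumors. Summed markers of lung epithelium ranged from 7.25 to 3584 CPM in MYCN ON tumors and were 34630, 43.1, 3142 and 5592 CPM in MYCN OFF tumors 1 to 4. Summed leukocyte markers ranged from 211 to 877 CPM in MYCN ON tumors and were 6208, 360, 1757 and 1919 CPM in MYCN OFF tumors 1 to 4. In bulk tumor RNA, fewer cells of a type and less RNA per cell cannot be told apart.

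Of the 31 constitutive core and cap genes 19 rose in MYCN ON tumors and 0 fell, and the 3 immune catalytic genes fell. Of the 48 proteasome genes 47 were tested, of which 24 rose, 3 fell and 20 were not called. Over all genes tested, 29.4% were called, 16.0% higher and 13.4% lower. The groups did not overlap for 23 of the 24 that rose and 2 of the 3 that fell. Among all genes, called or not, 11.4% were higher in MYCN ON tumors without overlap and 5.41% were lower without overlap. The median log2 fold change was 0.56 over the 47 genes and 0.00 over all genes tested. Of all calls, 54.5% were higher in MYCN ON tumors under TMM scaling, 37.0% under upper quartile scaling and 28.4% under library totals alone. With library totals alone the median over all genes was -0.31, and 17 proteasome genes were called higher and 3 lower, beside 8.67% and 21.9% of all genes.

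**Figure D1:**
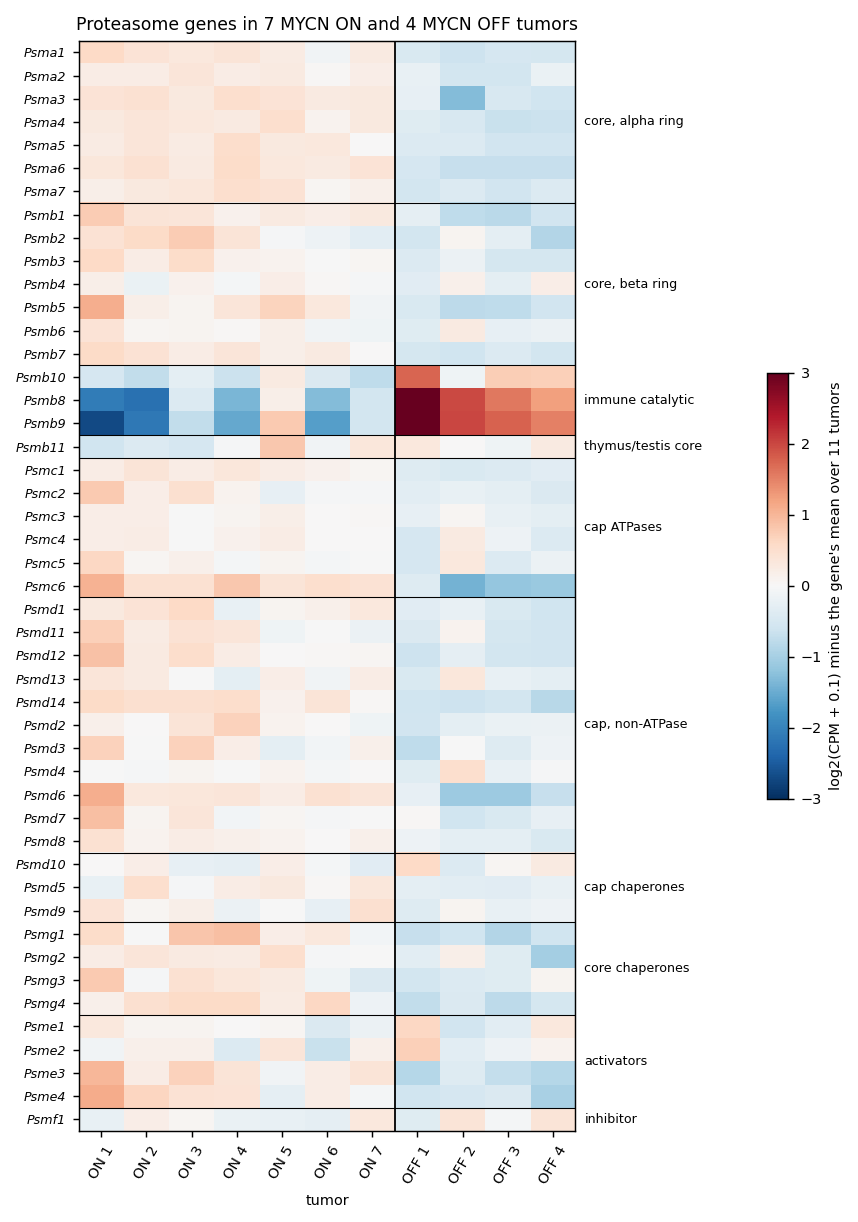
Level of each of the 47 tested proteasome genes in each tumor, shown as log2 of CPM plus 0.1 minus that gene's mean over the 11 tumors. Rows are genes grouped by role, columns are the 7 MYCN ON tumors on the left and the 4 MYCN OFF tumors on the right, and colors stop at the ends of the scale. All 7 Psma genes are below their mean in all 4 MYCN OFF tumors, and Psmb8 and Psmb9 are above theirs there.

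The 7 alpha-ring genes rose together. All 7 were called higher without overlap between groups, with log2 fold changes of 0.59 to 1.02 and a median of 0.84. Psma6 had the smallest p of the ring, with 163 CPM at the lowest, 172 CPM at the median and 199.9 CPM at the highest of the MYCN ON tumors, against 95.3, 83.8, 83.8 and 84.5 CPM in MYCN OFF tumors. Every MYCN ON tumor was above every MYCN OFF tumor (2.03-fold, log2 fold change 1.02, SE 0.12, edgeR adjusted p = 5.0e-04). Psma4 had 187 to 245 CPM with a median of 213 CPM in MYCN ON tumors, against 135, 124, 109 and 110.2 CPM in MYCN OFF tumors (log2 fold change 0.84, SE 0.13, edgeR adjusted p = 0.00135). Psma2, with the largest p of the ring, had 138 to 175 CPM with a median of 159 CPM in MYCN ON tumors and 117, 92.0, 92.4 and 119 CPM in MYCN OFF tumors. Here too the groups stood apart (log2 fold change 0.59, SE 0.13, edgeR adjusted p = 0.00807). The call of Psma2 was lost when upper quartile factors or plain library totals replaced TMM. Psma3, Psma1, Psma5 and Psma7 had log2 fold changes of 0.99, 0.84, 0.79 and 0.77.

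The constitutive beta ring was less uniform. Of its 7 genes 4 were called higher and 3 were not called, with log2 fold changes of 0.09 to 1.06. Psmb7, the trypsin-like catalytic subunit, had 213.5 to 312 CPM with a median of 253 CPM in MYCN ON tumors, against 146, 139, 158 and 144 CPM in MYCN OFF tumors (log2 fold change 0.82, SE 0.14, edgeR adjusted p = 0.00184). Psmb5, the chymotrypsin-like catalytic subunit and the main target of bortezomib, had 75.0 to 170 CPM with a median of 100.1 CPM in MYCN ON tumors and 58.0, 46.7, 47.2 and 54.2 CPM in MYCN OFF tumors. No MYCN OFF tumor reached the lowest MYCN ON tumor for either gene, and Psmb5 was 2.08-fold higher (log2 fold change 1.06, SE 0.22, edgeR adjusted p = 0.0062). Psmb6, the caspase-like catalytic subunit, had 144 to 209 CPM with a median of 165 CPM in MYCN ON tumors and 123, 190.1, 133 and 139 CPM in MYCN OFF tumors. MYCN OFF tumor 2 lay inside the MYCN ON range, and Psmb6 was not called (log2 fold change 0.19, SE 0.16, edgeR adjusted p = 0.376).

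Among the beta subunits without a protease site, Psmb1 had 223 to 347 CPM with a median of 249 CPM in MYCN ON tumors, against 168, 121, 117 and 137 CPM in MYCN OFF tumors (log2 fold change 0.94, SE 0.16, edgeR adjusted p = 0.00236). Psmb3 was also called (0.66), but lost its call with library totals alone and with the lung or the leukocyte score as a covariate. Psmb2 was not called at a log2 fold change of 0.66 (SE 0.25, edgeR adjusted p = 0.0637). Psmb4 had 158 to 209 CPM with a median of 186 CPM in MYCN ON tumors and 144, 201, 149 and 207 CPM in MYCN OFF tumors. For Psmb4, MYCN OFF tumors 2 and 4 lay inside the MYCN ON range and tumors 1 and 3 below it. It was not called (log2 fold change 0.09, SE 0.15, edgeR adjusted p = 0.665). Its sign was negative when upper quartile factors or library totals replaced TMM.

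**Figure D2:**
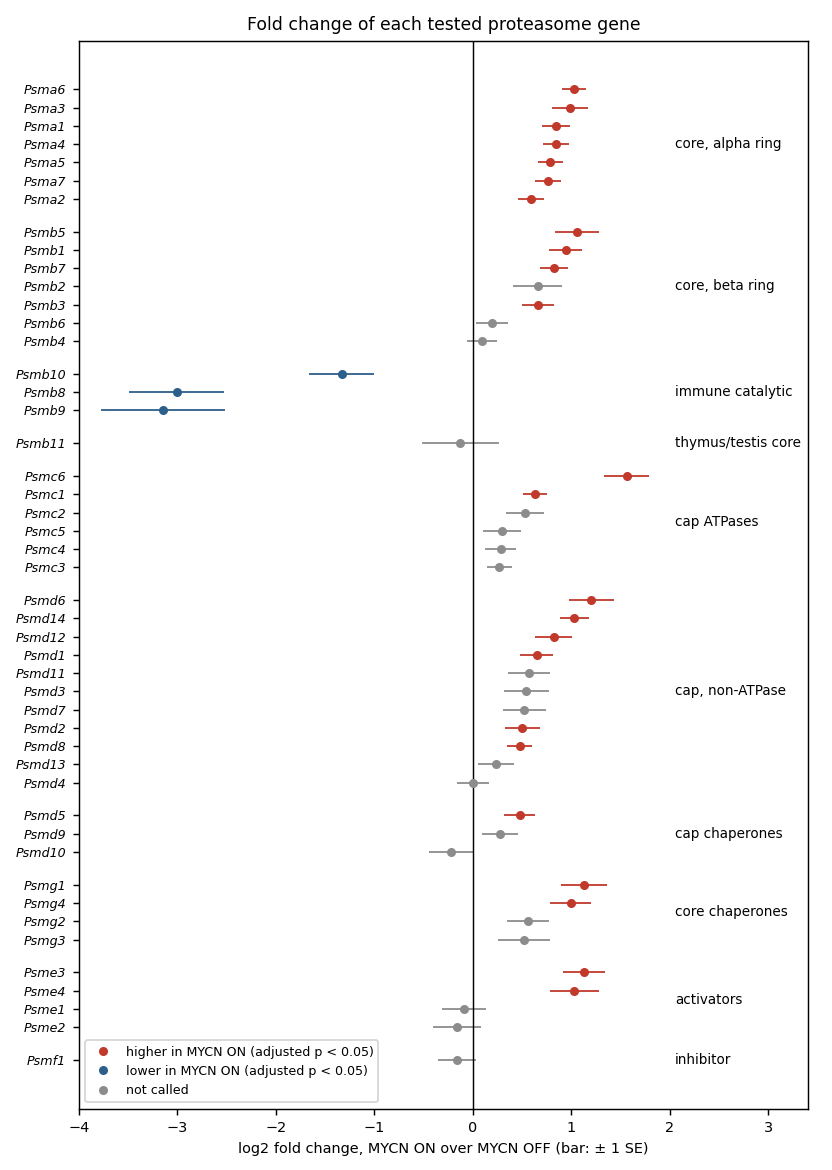
Log2 fold change of each tested proteasome gene, MYCN ON over MYCN OFF, with bars of 1 standard error from edgeR's fit of 7 and 4 tumors; genes are grouped by role and the axis is in log2 units. The 31 constitutive core and cap genes lie at or right of 0, and Psmb8, Psmb9 and Psmb10 lie left of it at -3.01, -3.14 and -1.33.

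The immune catalytic genes moved the other way. Psmb8, the counterpart of Psmb5, had 2.92 CPM at the lowest, 5.70 CPM at the median and 16.0 CPM at the highest of the MYCN ON tumors, against 115, 55.8, 42.4 and 33.1 CPM in MYCN OFF tumors 1 to 4. The highest MYCN ON tumor was below the lowest MYCN OFF tumor, and Psmb8 fell by 3.01 on the log2 scale (SE 0.48, edgeR adjusted p = 0.00164). Psmb9, the counterpart of Psmb6, had 0.696 to 8.81 CPM with a median of 1.67 CPM in MYCN ON tumors and 50.2, 20.6, 17.4 and 14.5 CPM in MYCN OFF tumors 1 to 4. The groups again did not overlap (log2 fold change -3.14, SE 0.63, edgeR adjusted p = 0.00473). Its counts were as low as 6 reads in a MYCN ON tumor. Psmb10, the counterpart of Psmb7, had 9.94 to 20.5 CPM with a median of 11.8 CPM in MYCN ON tumors and 57.3, 15.4, 28.5 and 27.9 CPM in MYCN OFF tumors 1 to 4. MYCN OFF tumor 2 lay inside the MYCN ON range, and Psmb10 fell by 1.33 on the log2 scale (SE 0.33, edgeR adjusted p = 0.0120). Without MYCN OFF tumor 1 the change of Psmb10 was -0.90 and it was not called (edgeR adjusted p = 0.0542).

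**Figure D3:**
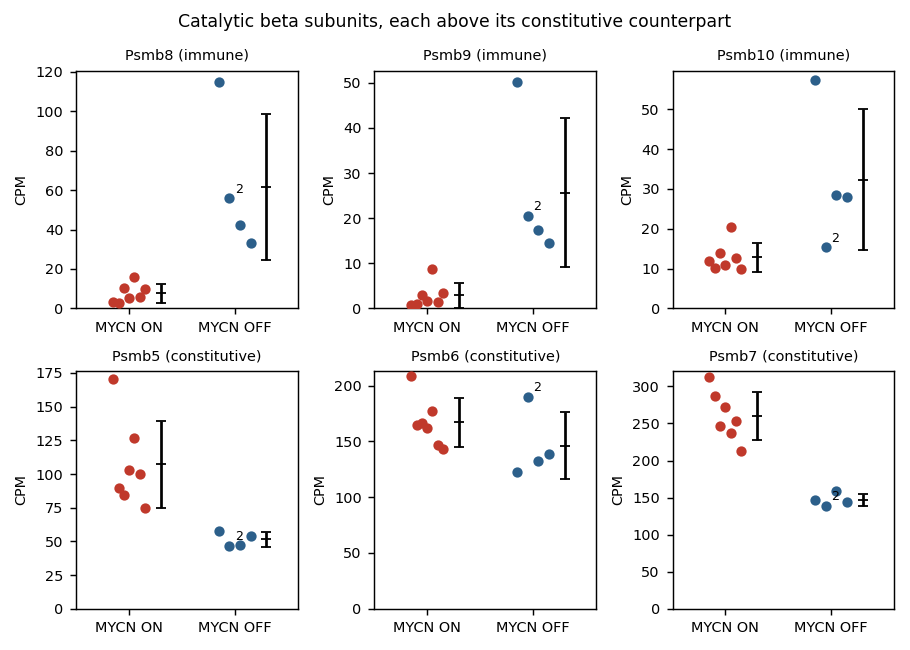
CPM of the 3 immune catalytic genes (top) and of their constitutive counterparts (bottom) in each tumor, MYCN ON left and MYCN OFF right; points are tumors, the bars beside them are the group mean ± SD (n = 7 and n = 4), and the digit 2 marks MYCN OFF tumor 2. Psmb8 and Psmb9 are separate between groups with MYCN OFF above, while Psmb5 and Psmb7 are separate with MYCN ON above.

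Promoters are shown for a few members, chosen with their values known. Psmb8 and Psmb9 are the called immune genes without overlap, Psmb5 is the counterpart of Psmb8, and Psme1 is the interferon-inducible activator gene described further on. They are the 250 bases before to 50 after the annotated start, 5′ to 3′ on the gene's strand, from RefSeq with build GRCm38.p6 (the counts were made on mm9). Psmb8 lies at chr17:34197945-34198244 on the plus strand, Psmb9 at chr17:34187281-34187580 on the minus strand, Psmb5 at chr14:54617946-54618245 on the minus strand and Psme1 at chr14:55578244-55578543 on the plus strand. Capitals mark a match to TTCNNNGAA, the gamma-activated site of interferon-responsive genes, in Psmb8, to GAAA, any 2 bases and GAAA again, the interferon-stimulated response element, in Psme1 on the reverse strand, and to TGACNNNGC, bound by CNC and small Maf factors, in Psmb5.
Psmb8: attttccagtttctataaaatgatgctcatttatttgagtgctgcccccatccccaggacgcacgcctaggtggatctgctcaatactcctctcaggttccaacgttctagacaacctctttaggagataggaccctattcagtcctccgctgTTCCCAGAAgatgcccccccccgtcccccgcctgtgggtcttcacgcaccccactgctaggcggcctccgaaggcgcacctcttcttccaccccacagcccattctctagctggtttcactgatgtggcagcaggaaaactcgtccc
Psmb9: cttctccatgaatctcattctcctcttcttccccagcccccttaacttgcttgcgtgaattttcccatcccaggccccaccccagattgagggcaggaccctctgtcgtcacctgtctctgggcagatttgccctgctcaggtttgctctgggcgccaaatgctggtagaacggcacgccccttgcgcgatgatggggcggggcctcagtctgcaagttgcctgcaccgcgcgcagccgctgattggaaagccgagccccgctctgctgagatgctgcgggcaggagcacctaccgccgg
Psmb5: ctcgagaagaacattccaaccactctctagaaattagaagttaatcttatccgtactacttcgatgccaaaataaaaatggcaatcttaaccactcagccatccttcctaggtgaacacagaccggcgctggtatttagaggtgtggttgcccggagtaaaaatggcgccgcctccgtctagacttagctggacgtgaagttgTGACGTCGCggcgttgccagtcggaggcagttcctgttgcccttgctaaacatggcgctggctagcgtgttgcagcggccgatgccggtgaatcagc
Psme1: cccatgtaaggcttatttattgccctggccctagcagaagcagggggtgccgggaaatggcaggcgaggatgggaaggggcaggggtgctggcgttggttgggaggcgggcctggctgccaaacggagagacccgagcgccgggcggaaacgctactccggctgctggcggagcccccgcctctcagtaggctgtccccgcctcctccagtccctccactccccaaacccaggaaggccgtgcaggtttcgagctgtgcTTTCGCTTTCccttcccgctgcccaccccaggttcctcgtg

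Of the 48 genes 40 matched a RefSeq promoter, and both strands were searched for 4 motifs. TTCNNNGAA was in 3 of the 40 (Psmb8, Psmd2 and Psmg1) and in 8.30% of 32851 promoters of the same length. The interferon-stimulated response element was in 5 of the 40 (Psmb3, Psmd4, Psmd9, Psme1 and Psmg4) and in 3.44% of all. TGACNNNGC was in 6 of the 40 (Psmb5, Psmb6, Psmc6, Psmd12, Psmd9 and Psme4) and in 12.4% of all. CACGTG, the E-box that MYC family proteins bind, was in 4 of the 40 (Psma4, Psmb10, Psmd9 and Psme3) and in 7.15% of all. Psmd9 held 3 of the motifs and no matches in the 40 promoters overlapped. Genes that rose, fell and were not called all appear among the holders. None of the 4 motifs matched in the Psmb9 window. Its start lies 226 bases from that of Tap1 on the opposite strand, so 275 bases of the window are shared with the promoter of Tap1, a peptide transporter subunit. Tap1 fell by 2.56 on the log2 scale (SE 0.58, edgeR adjusted p = 0.00856) and was singled out for this shared window after its values were seen.

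A ratio of 2 counts within a tumor does not depend on library scaling. For each 100 reads of Psmb5 there were 1.94 to 12.9 reads of Psmb8 in MYCN ON tumors with a median of 5.74, against 198, 119.5, 89.9 and 61.0 in MYCN OFF tumors. The immune partner had more reads than the constitutive partner in MYCN OFF tumors 1 and 2 only, of the 11 tumors. Exons of Psmb8 span 1628 bases and those of Psmb5 899, so more reads need not mean more transcripts. The log2 ratio differed by -4.08 between MYCN ON and MYCN OFF tumors (SE 0.54, two-sided exact permutation test, p = 0.00606, the smallest that 330 splits can give, adjusted p = 0.00808 over 4 ratios). For each 100 reads of Psmb6 there were 0.361 to 4.98 reads of Psmb9 in MYCN ON tumors with a median of 1.08, against 40.8, 10.9, 13.1 and 10.5 in MYCN OFF tumors (difference -3.60, SE 0.66, same exact p). For each 100 reads of Psmb7 there were 3.56 to 8.68 reads of Psmb10 in MYCN ON tumors with a median of 4.68, against 39.2, 11.2, 18.0 and 19.4 in MYCN OFF tumors (difference -2.03, SE 0.41, same exact p). All 3 ratios separated the groups, that of Psmb10 to Psmb7 included, although Psmb10 alone overlapped. Psmb7 alone already separated the groups with MYCN ON above, so that ratio is no separate evidence on Psmb10. Psmb8 and Psmb5 alone also separated them, in opposite directions, so separation of their ratio followed from the single genes. Psmb9 alone separated them as well, so none of the 3 ratios is evidence separate from the single genes. No ratio was fitted with the lung or the leukocyte score.

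**Figure D4:**
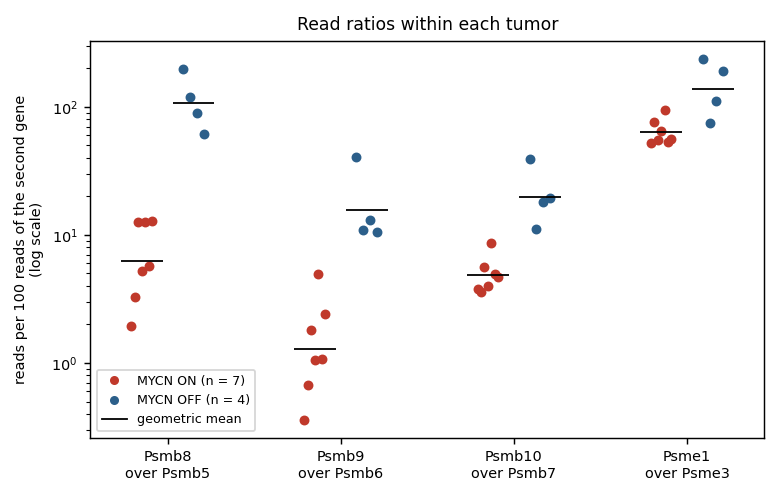
Reads of the first gene per 100 reads of the second within each tumor, on a log scale, for Psmb8 over Psmb5, Psmb9 over Psmb6, Psmb10 over Psmb7 and Psme1 over Psme3, MYCN ON left and MYCN OFF right in each; points are tumors and lines are geometric means (n = 7 and n = 4). The first 3 ratios do not overlap between groups, and Psme1 over Psme3 does.

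Per length, the core genes were uneven within a tumor group. On the scale of CPM per kb of exon, mean levels of the 14 constitutive core genes ranged from 54.3 (Psma2) to 232 (Psma7) with a median of 168 in MYCN ON tumors, and from 36.1 (Psma2) to 183 (Psmb6) with a median of 101 in MYCN OFF tumors. Mean levels of the 3 immune genes were 2.13 to 9.78 CPM per kb in MYCN ON tumors and 18.99 to 37.8 CPM per kb in MYCN OFF tumors. Psmb8 averaged 4.69 ± 2.89 CPM per kb in MYCN ON tumors and 37.8 ± 22.6 in MYCN OFF tumors, while Psmb5 averaged 119 ± 36.0 CPM per kb in MYCN ON tumors and 57.3 ± 6.11 in MYCN OFF tumors (SD, n = 7 and n = 4). Exon lengths were of another annotation than the counts, and Psmb5, Psmb6 and Psmb7 have processed pseudogenes, to which reads can align as well. Reads aligned to several places were not counted for any gene, and they made up 13.8% to 20.9% of a library in MYCN ON tumors and 9.15% to 11.9% in MYCN OFF tumors. Their part in these values was not tested.

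Markers of leukocytes and of endothelium fell along with the immune catalytic genes. Of 18 leukocyte markers tested 10 were called lower in MYCN ON tumors and none higher, beside 13.4% lower and 16.0% higher of all genes. Nkg7, of cytotoxic lymphocytes, had 0 reads in 4 MYCN ON tumors. MYCN OFF tumor 2 had a leukocyte sum of 360 CPM, inside the MYCN ON range of 211 to 877 CPM. Of the 19 markers in that tumor 17 lay within the MYCN ON range, Cd3e at 0.0989 CPM and Nkg7 at 0.297 CPM among them. The other 2 were above every MYCN ON tumor, Cd79a, of B cells, at 12.2 CPM (highest MYCN ON tumor 6.74 CPM) and Coro1a, of leukocytes in general, at 55.8 CPM (highest MYCN ON tumor 41.2 CPM). Without Lyz2, the most abundant of the 19, the sums were 114 to 339.9 CPM in MYCN ON tumors and 1369, 220.2, 613 and 505 CPM in MYCN OFF tumors 1 to 4. In that tumor Psmb8 was 55.8 CPM and Psmb9 was 20.6 CPM, each above the highest MYCN ON tumor, while Psmb10 was 15.4 CPM and below the highest. With the leukocyte score as a covariate, Psmb8 changed by -2.28 (edgeR adjusted p = 0.0186) and Psmb9 by -2.23 (edgeR adjusted p = 0.0466). With that covariate, 16 proteasome genes were called higher and 2 lower, beside 6.87% and 3.99% of all genes. Psmb10 then changed by -0.33 and was not called (edgeR adjusted p = 0.459). With the lung epithelium score as a covariate, the changes were -2.47 for Psmb8 (edgeR adjusted p = 0.0066), -2.50 for Psmb9 (edgeR adjusted p = 0.0114) and -0.61 for Psmb10 (edgeR adjusted p = 0.192). With this score 17 proteasome genes were called higher and 2 lower, beside 7.86% and 3.64% of all genes. In the 6 tumors poor in lung tissue (Sftpc below 100 CPM, 5 MYCN ON and MYCN OFF tumor 2), edgeR called 0 genes and 2289 had an unadjusted p below 0.05. All 27 called proteasome genes kept their direction in those tumors, with changes of -3.40 for Psmb8, -3.62 for Psmb9 and -0.50 for Psmb10. The 27 had been called with those same 6 tumors included, so the kept direction is no separate check. Of 8 endothelial markers 5 were called lower in MYCN ON tumors, beside 13.4% of all genes. The endothelial marker sums were 63.8 to 208 CPM in MYCN ON tumors and 958, 68.6, 232 and 247 CPM in MYCN OFF tumors 1 to 4. The part of endothelium in these results was not tested. The muscle marker sum was 28.5 to 352 CPM in MYCN ON tumors and 401, 401, 339.7 and 31.0 CPM in MYCN OFF tumors 1 to 4, and its part was not tested.

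**Figure D5:**
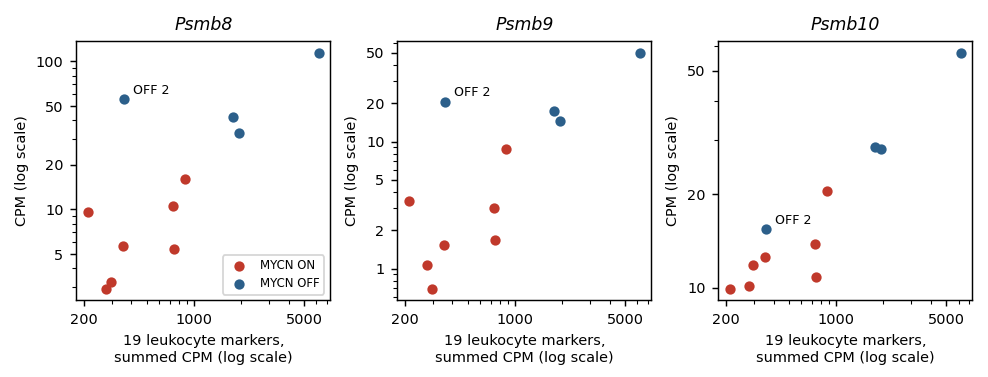
CPM of Psmb8, Psmb9 and Psmb10 against the summed CPM of 19 leukocyte markers in each tumor, both on log scales, with MYCN OFF tumor 2 labelled. At a leukocyte sum inside the MYCN ON range, tumor OFF 2 has Psmb8 and Psmb9 above all MYCN ON tumors and Psmb10 within them.

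The other genes of interferon response and class I loading fell as well. Of 21 in the list, 15 were called lower in MYCN ON tumors and 0 higher, where 13.4% of all genes were called lower. The list's median log2 fold change was -2.10. With the lung score as a covariate 10 of the 21 were called lower, with the leukocyte score 8, and in the tumors poor in lung tissue 0. Irf1, a transcription factor that acts on the Psmb9 and Tap1 promoter region, averaged 19.4 ± 6.93 CPM in MYCN ON tumors and 75.8 ± 16.1 CPM in MYCN OFF tumors (SD, n = 7 and n = 4, log2 fold change -1.96, edgeR adjusted p = 8.5e-04). Tapbp, the tapasin that bridges class I molecules to the transporter, changed by -2.42, and Irgm1, an interferon-inducible GTPase, by -2.86. The 6 members not called were Erap1, Ifngr1, Ifngr2, Jak1, Jak2 and Socs1, and this naming was made after their values were seen. Summed CPM of the 21 genes was 338 to 817 in MYCN ON tumors and 4016, 1005, 1741 and 1295 in MYCN OFF tumors 1 to 4. The sum in MYCN OFF tumor 2 was above every MYCN ON tumor.

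Of the 17 cap genes 8 rose and 0 fell, beside 16.0% higher and 13.4% lower of all genes. The cap genes' median log2 fold change was 0.53. Of the 14 constitutive core genes 11 rose and 0 fell, with a median of 0.81, and the difference between cap and core was not tested. Of the 6 ATPases 2 rose. Psmc6 had 191 to 303 CPM with a median of 202 CPM in MYCN ON tumors, against 113, 54.4, 66.0 and 67.6 CPM in MYCN OFF tumors. The groups stood well apart and Psmc6 had the largest rise of the 47 genes, 2.95-fold (log2 fold change 1.56, SE 0.23, edgeR adjusted p = 0.00108). Psmc1 had 215 to 272 CPM with a median of 243.5 CPM in MYCN ON tumors and 159, 151, 155.5 and 162 CPM in MYCN OFF tumors (log2 fold change 0.63, SE 0.12, edgeR adjusted p = 0.00339). Its call was lost with library totals alone. Psmc5 had 147 to 236.5 CPM with a median of 162 CPM in MYCN ON tumors and 108, 191, 115 and 136 CPM in MYCN OFF tumors. MYCN OFF tumor 2 was the highest of its group and inside the MYCN ON range, and Psmc5 was not called (log2 fold change 0.29, SE 0.19, edgeR adjusted p = 0.268). Psmc2, Psmc3 and Psmc4 were not called at 0.53, 0.27 and 0.28.

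Of the 11 non-ATPase subunits 6 rose, beside 16.0% of all genes. With the lung or the leukocyte score as a covariate 2 were called higher, beside 7.86% and 6.87% of all genes. With library totals alone 3 were called higher, beside 8.67% of all genes. Psmd14, the deubiquitinase that removes the ubiquitin chain from the substrate, had 116 to 169 CPM with a median of 159.7 CPM in MYCN ON tumors, against 75.7, 74.3, 77.4 and 64.5 CPM in MYCN OFF tumors (log2 fold change 1.03, SE 0.15, edgeR adjusted p = 0.00108). Psmd6, of the cap's lid, had 110.3 to 202 CPM with a median of 121 CPM in MYCN ON tumors and 80.2, 44.5, 44.3 and 59.0 CPM in MYCN OFF tumors (log2 fold change 1.20, SE 0.23, edgeR adjusted p = 0.00339). Both separated the groups. Psmd4, a ubiquitin receptor of the cap, had 114 to 129 CPM with a median of 118 CPM in MYCN ON tumors and 92.1, 169.7, 103 and 116 CPM in MYCN OFF tumors. Its MYCN ON tumors lay within the MYCN OFF range (log2 fold change 0.00, SE 0.16, edgeR adjusted p = 0.993). Psmd12, Psmd1 and Psmd8 rose by log2 fold changes of 0.82, 0.65 and 0.48, and all 3 lost the call with the lung or the leukocyte score as a covariate. Psmd2, a scaffold of the cap's base, was called at 0.50 (edgeR adjusted p = 0.0492) and lost the call in 19 of 21 other settings. Psmd11, Psmd13, Psmd3 and Psmd7 were not called.

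The 31 constitutive core and cap genes all had positive log2 fold changes, of which 19 were called, and none of those 19 changed direction under any alternative. The alternatives reused the same tumors or a part of them, so the kept direction is no separate check. With library totals alone 24 of 31 were positive and the median of the 31 was 0.34, beside -0.31 for all genes. Under that scaling 13 of the 31 were called higher, beside 8.67% of all genes. With the lung or the leukocyte score as a covariate 14 of the 31 were called higher, beside 7.86% and 6.87% of all genes. MYCN ON tumor 1 was the highest of its group in 18 of the 31. MYCN OFF tumor 2 was the highest of its group in 10 of the 12 constitutive genes not called and in 4 of the 19 called. A high value in a MYCN OFF tumor itself makes a higher call less likely, so this contrast is partly built in. Without MYCN OFF tumor 2, 23 of the 31 were called, beside 19.1% of all genes called higher (16.0% with that tumor). Psmb2, Psmc3, Psmc4, Psmc5 and Psmd11 were those gained, and Psmd2 lost its call.

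The assembly chaperones gave mixed results. Psmg1 and Psmg2 form a pair, and Psmg3 and Psmg4 another, that build the alpha ring. Psmg1 had 28.2 to 55.9 CPM with a median of 37.2 CPM in MYCN ON tumors, against 18.4, 19.5, 16.2 and 19.6 CPM in MYCN OFF tumors (log2 fold change 1.13, SE 0.23, edgeR adjusted p = 0.0050). Psmg4 had 18.7 to 32.0 CPM with a median of 29.1 CPM in MYCN ON tumors and 12.6, 15.5, 12.01 and 14.4 CPM in MYCN OFF tumors (log2 fold change 0.99, SE 0.21, edgeR adjusted p = 0.00614). In each pair, then, a member was called without overlap and the partner was not called. Psmg2 had 36.7 to 54.0 CPM with a median of 45.4 CPM in MYCN ON tumors and 30.3, 42.5, 29.3 and 18.7 CPM in MYCN OFF tumors (log2 fold change 0.56, SE 0.21, edgeR adjusted p = 0.0664). Psmg3 had 13.6 to 32.0 CPM with a median of 22.2 CPM in MYCN ON tumors and 12.6, 13.8, 14.3 and 19.8 CPM in MYCN OFF tumors (log2 fold change 0.52, SE 0.26, edgeR adjusted p = 0.151). The difference within a pair was not tested.

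Of the chaperones of the cap's base, Psmd5 had 52.0 to 85.4 CPM with a median of 70.6 CPM in MYCN ON tumors and 48.9, 48.5, 47.8 and 51.7 CPM in MYCN OFF tumors. It was called at a log2 fold change of 0.48 (SE 0.16, edgeR adjusted p = 0.0407) and lost the call in 18 of 21 other settings. Psmd9 had 35.6 to 58.8 CPM with a median of 43.8 CPM in MYCN ON tumors and 32.3, 45.1, 36.3 and 37.9 CPM in MYCN OFF tumors (log2 fold change 0.28, SE 0.18, edgeR adjusted p = 0.269). Psmd10, also known as gankyrin, had 16.0 to 23.3 CPM with a median of 19.4 CPM in MYCN ON tumors and 30.4, 15.2, 20.8 and 24.2 CPM in MYCN OFF tumors (log2 fold change -0.23, SE 0.22, edgeR adjusted p = 0.466). The groups overlapped for both, and neither was called.

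Of the 4 activators 2 were called higher, beside 16.0% of all genes, and 2 were not called. The difference between the kinds was not tested. Psme3 forms a nuclear activator ring and Psme4 is a large single-chain activator, and both rose. Psme3 had 125 to 267 CPM with a median of 175 CPM in MYCN ON tumors, against 73.7, 102, 82.3 and 74.6 CPM in MYCN OFF tumors (log2 fold change 1.13, SE 0.21, edgeR adjusted p = 0.00329). Psme4 had 158 to 408 CPM with a median of 253 CPM in MYCN ON tumors and 126, 134, 140.3 and 96.5 CPM in MYCN OFF tumors (log2 fold change 1.03, SE 0.25, edgeR adjusted p = 0.0115). Neither overlapped between groups, and both lost the call with the leukocyte score as a covariate, Psme4 also with the lung score.

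Psme1 and Psme2 form the cytoplasmic activator ring that interferon gamma induces. Psme1 had 83.8 to 140.1 CPM with a median of 117 CPM in MYCN ON tumors and 175, 76.4, 90.9 and 141 CPM in MYCN OFF tumors (log2 fold change -0.09, SE 0.22, edgeR adjusted p = 0.797). Psme2 had 38.9 to 79.7 CPM with a median of 69.0 CPM in MYCN ON tumors and 103, 50.3, 55.6 and 67.2 CPM in MYCN OFF tumors (log2 fold change -0.16, SE 0.24, edgeR adjusted p = 0.637). The groups overlapped for both, and MYCN OFF tumor 1 was the highest of all 11. Psme1 and Psme2 turned positive with the lung or the leukocyte score as a covariate, and neither was called. For each 100 reads of Psme3 there were 52.5 to 93.7 reads of Psme1 in MYCN ON tumors with a median of 56.6, against 237, 74.6, 110 and 189 in MYCN OFF tumors. The log2 ratio differed by -1.13 (SE 0.40, two-sided exact permutation test, p = 0.0182, adjusted p = 0.0182), with MYCN OFF tumor 2 inside the MYCN ON range. Without MYCN OFF tumor 1, 3 or 4 the difference was -0.87, -1.24 or -0.98 and no longer passed the threshold. Psme3 alone separated the groups, so the ratio is no separate evidence on Psme1. Psmf1, an inhibitor of the core, had 42.4 to 64.2 CPM with a median of 44.6 CPM in MYCN ON tumors and 40.0, 67.4, 49.0 and 67.6 CPM in MYCN OFF tumors. It was not called (log2 fold change -0.16, SE 0.19, edgeR adjusted p = 0.558).

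The tissue-specific core genes were near the limit of detection. Psma8, of the testis, had 21 reads over all 11 tumors and at most 5 in a tumor, and was not tested. Psmb11, of the thymic cortex, had 1.39 to 3.82 CPM in MYCN ON tumors and 2.72, 2.18, 1.96 and 2.62 CPM in MYCN OFF tumors (log2 fold change -0.13, SE 0.39, edgeR adjusted p = 0.829).

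Genes of proteins that work with the proteasome were taken from a list of 18, of which 17 were tested. Of these 7 rose and 1 fell, beside 16.0% higher and 13.4% lower of all genes, and their median log2 fold change was 0.64. Usp14, a deubiquitinase bound to the cap, averaged 157 ± 16.9 CPM in MYCN ON tumors and 62.3 ± 11.97 CPM in MYCN OFF tumors (SD, n = 7 and n = 4, log2 fold change 1.33, edgeR adjusted p = 5.4e-04). Uchl5, the other cap-bound deubiquitinase of this kind, rose by 0.88 and Ubqln1, a shuttle that carries ubiquitinated proteins to the cap, by 0.93. Akirin2, which in human cells takes part in the nuclear import of proteasomes, rose by 1.18. Adrm1, a ubiquitin receptor of the cap, and Pomp, a maturation factor of the core, were not called at 0.21 and 0.46 and were named after their values were seen.

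Nfe2l1 encodes the transcription factor known for raising proteasome subunit genes when proteasome activity falls. It averaged 123 ± 19.4 CPM in MYCN ON tumors and 173 ± 22.8 CPM in MYCN OFF tumors and was called lower (SD, n = 7 and n = 4, log2 fold change -0.49, edgeR adjusted p = 0.0335). Of the 14 genes of its processing and partner list, 1 rose and 2 fell, which is 7.14% and 14.3%, near or under the 16.0% and 13.4% of all genes, and the median log2 fold change was 0.14. Vcp, the ATPase that extracts the factor from the membrane, rose by 0.63 (edgeR adjusted p = 0.0133) but was not called when upper quartile factors or library totals replaced TMM. Nfe2l2, a related factor, had 27.8 to 64.0 CPM in MYCN ON tumors and 162, 46.3, 75.2 and 149 CPM in MYCN OFF tumors 1 to 4. It fell by 1.46 on the log2 scale (edgeR adjusted p = 0.00831), with MYCN OFF tumor 2 inside the MYCN ON range. Vcp, Nfe2l1 and Nfe2l2 each lost the call with the lung or the leukocyte score as a covariate. Nfe2l1 also lost it without MYCN ON tumor 2 or 6 or MYCN OFF tumor 1 or 4, with changes of -0.44, -0.47, -0.46 and -0.43. Maff, a small Maf partner, was not called at -0.90 (edgeR adjusted p = 0.103). Messenger levels give no measure of the processed factor.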

How the data were processed

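RNA from 11 tumors was sequenced after oligo-dT selection, per the labels' protocols. TopHat2 2.0.8b, HTSeq 0.6.1, bcl2fastq 1.8.4 and build mm9 are named in the submitters' processing notes; which annotation and strandedness HTSeq used is not given in the sources used here. The values deposited by the authors were raw whole-number counts for each gene symbol and tumor. From every tumor's file 5 summary rows were left out; reads without a gene made up 14.8% to 21.5% and multiply aligned reads 9.15% to 20.9% of a library.

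Counts were fitted in edgeR 4.0.16 (R 4.3.3) with TMM factors, filterByExpr by group (minimum count 10, minimum total 15) and the robust quasi-likelihood test over all 15237 genes, with no covariate. Standard errors were |log2 fold change| over the root of the F statistic. Ratios were log2 of counts plus 0.5. Per-tumor ratios were compared by exact permutation (scipy 1.17.1). Read counting limits the precision of low genes. Libraries of a group differed by more than sampling noise (lowest chi-square per gene 50.5). On simulated data for this comparison (15237 genes, 200 changed), 8% of 2-fold and 54% of 4-fold changes were recovered and 1.59% of calls were false. In the tumors 4475 genes were called, far more than the 200 changed there, so the recovered shares need not hold for them. Alternatives were other scalings, filters, DESeq2 1.42.0, limma 3.58.1, covariates, a replicate block and leaving out tumors. Lung-poor tumors, an alternative below, are those with Sftpc under 100 CPM.

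Members and lists were chosen with earlier results of these data known. Genes given in full were the immune catalytic genes, their counterparts, Psme, Psmf and Psmg genes, in other classes the 2 smallest and the largest p, and up to 4 of each other list by p. Some single genes of those lists are not reported here by name.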

Additional observations from a re-analysis of the deposited data

Results flagged for a closer look

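Each proteasome gene and each ratio was looked at for a tumor far from the rest of its group, in 102 looks, and 5 stood out, where chance gives about 1 in 20. MYCN ON tumor 1 stood above the rest of its group for Psmb1 at 347 CPM (others 223 to 266 CPM), for Psmc5 at 236.5 CPM (others 147 to 170.5 CPM) and for Psmd6 at 202 CPM (others 110.3 to 129 CPM). MYCN OFF tumor 1 stood above the rest of its group for Psma6 at 95.3 CPM (others 83.8 to 84.5 CPM). It also stood above for the log2 ratio of Psmb9 over Psmb6 at -1.29 (others -3.25 to -2.93). The groups did not overlap for Psma6, Psmb1, Psmd6 and that ratio with these tumors included.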

How the results depend on the processing

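Of the 27 called proteasome genes, 0 changed direction in any alternative and 16 kept call and direction in all 21 besides the lung-poor tumors alone: Psma1, Psma3 to Psma7, Psmb1, Psmb5, Psmb7, Psmb8, Psmb9, Psmc6, Psmd6, Psmd14, Psmg1 and Psmg4. The alternatives reused the same tumors or a part of them, so a kept direction is no separate check. When lung-poor tumors alone were fitted (5 MYCN ON and 1 MYCN OFF, the lone tumor assumed to vary like the others), edgeR called 0 genes higher and 0 lower over all genes, proteasome and immune genes included. At an unadjusted p below 0.05 there were 2289 genes, 17 of the 47 proteasome genes among them; no other tool was run there. The changes there were -3.40 for Psmb8, -3.62 for Psmb9 and -0.50 for Psmb10, and the ratios of Psmb10 to Psmb7 and Psme1 to Psme3 differed by -1.42 and -0.31. Fewer tumors entered that fit.

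Over all genes, higher and lower calls numbered 2437 and 2038, against 1321 and 3333 with library totals, 1198 and 555 with the lung score, 1047 and 608 with the leukocyte score, and 3231 lower with DESeq2. Leaving out a tumor gave 1674 to 2956 higher and 1015 to 2440 lower, and 21 to 28 proteasome genes higher and 2 to 3 lower; without MYCN OFF tumor 1 or 4 the lower calls were 1015 and 1248. It gave ratio differences of -4.35 to -3.79 (Psmb8 to Psmb5), -3.93 to -3.15 (Psmb9 to Psmb6), -2.31 to -1.70 (Psmb10 to Psmb7) and -1.43 to -0.87 (Psme1 to Psme3).

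The replicate numbers 1 to 4 share only a number: the deviations of same-numbered tumors correlated at -0.16, 0.46, -0.08 and 0.27. With the replicate block 21 proteasome genes were higher and 3 lower, beside 1872 (12.3%) and 1152 (7.56%) of all genes. Psma2, Psmd1, Psmd2, Psmd5, Psmd8, Nfe2l1 and Nfe2l2 lost the call with it, and Psmb2 and Psmc2 gained it. Ratio differences with the block were -4.56, -4.25 and -2.24 for the catalytic pairs (exact p = 0.125, the smallest 4 pairs can give, adjusted p = 0.167) and -1.17 for Psme1 to Psme3 (exact p = 0.25).

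Genes that were not called changed sign as follows; the cause was not tested. With library totals, whose median over all genes was -0.31, log2 fold changes were -0.21 (Psmb4), -0.11 (Psmb6), -0.037 (Psmc3), -0.023 (Psmc4), -0.017 (Psmc5), -0.069 (Psmd13), -0.30 (Psmd4) and -0.034 (Psmd9). With upper quartile factors they were -0.11 (Psmb4), -0.0073 (Psmb6) and -0.19 (Psmd4). Psmd4 was -0.069 with RLE factors, -0.063 with DESeq2, -0.049 with no filter and -0.068 with the stricter filter. With the lung score they were 0.16 (Psmb11), 0.017 (Psmd10), -0.11 (Psmd4), 0.23 (Psme1) and 0.21 (Psme2). With the leukocyte score they were 0.086 (Psmb11), -0.013 (Psmb4), 0.13 (Psmd10), -0.091 (Psmd13), -0.23 (Psmd4), 0.34 (Psme1) and 0.24 (Psme2). With the block Psme1 was 0.11. In lung-poor tumors they were -0.19 (Psmb4), -0.23 (Psmb6), -0.17 (Psmc4), -0.20 (Psmc5), 0.30 (Psmd10), -0.25 (Psmd13), -0.56 (Psmd4), 0.52 (Psme1), 0.15 (Psme2) and -0.028 (Psmg2). Leaving out a tumor gave -0.011 to 0.19 (Psmb4), -0.10 to 0.23 (Psmd4), -0.25 to 0.15 (Psme1) and -0.28 to 0.10 (Psme2).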
